A study of Mus musculus with 36 samples.

Results

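The let-7 family is a set of microRNAs (miRNAs) that share one seed, the stretch near the 5′ end of the miRNA that pairs with target RNA. Loaded into the protein Ago2, a let-7 miRNA holds Ago2 on messages with a matching site and lowers their translation and stability. The family is known as a brake on growth and on fetal gene programmes, with Hmga2, Lin28, Ras genes and the insulin-like growth factor axis among its classical targets. Described here are the Ago2-bound RNA regions (peaks) of mouse colonic tumours for which the authors' annotation lists a let-7 seed match of the strong kinds. An 8mer match pairs with miRNA bases 2 to 8 and has an A opposite the first base, and a 7m8 match pairs with bases 2 to 8 alone. A peak was taken when its 8mer or 7m8 entries named let-7, which held for 688 of 7585 annotated peaks (9.07%), on 652 of 3914 genes. The rule reads the annotation and not the signal values.

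The 6 G12D tumours came from C57BL/6 mice that were K-Ras-G12D/+ and also Apc(fl/fl), Villin-CreER/+ and Halo-Ago2/+, and the 6 WT tumours from mice that carried all of these alleles except K-Ras-G12D. WT therefore names the K-Ras allele only: both groups lacked Apc in cells that had expressed the Cre, which is driven by the promoter of the gut epithelial gene Villin, and both carried Ago2 fused to a Halo tag. All mice received 4-hydroxytamoxifen as an enema (200 µl at 5 mg/ml) at 8 to 12 weeks of age, and tumours were collected when the animals were moribund. Tissue was crosslinked with UV light 3 times at 400 mJ/cm2, and Ago2-bound RNA was sequenced as separate miRNA and mRNA libraries; input libraries were also made and are not analysed here, so a peak's value holds both the level of its RNA and its binding by Ago2. The labels put replicates 1 to 3 of each genotype in batch 1 and replicates 4 to 6 in batch 2, without saying what a batch was, and do not say that each replicate is a separate mouse. P-values thus measure the spread between these samples.

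The mRNA libraries differed in depth. They held 125384 to 974013 reads in peaks, apart from WT replicates 5 and 6 with 30607 and 57037 reads. In those libraries 59.8% and 34.0% of all peaks had no read. Calls by limma and DESeq2 and the median fold changes of let-7 and of all peaks are given with and without them. Values of single peaks and group means include them unless stated. Of 16 colon epithelium marker genes 12 had an Ago2 peak, Cdh1, Epcam, Vil1 and Krt20 among them and Cdx1, Cldn3, Krt18 and Lgals4 not. Their peaks summed to 4808 to 10607 normalised counts in G12D tumours and to 779 to 10443 in WT tumours. Of 14 fibroblast and smooth muscle markers 3 had a peak (all collagen genes), of 14 leukocyte markers 1 had one (H2-Eb1, with Ptprc, Cd3e and Adgre1 lacking one), and of 6 endothelial markers 0 did. In such bulk tissue, fewer cells of a type and less RNA per cell cannot be told apart.

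The sequences that define the set are those of the miRNAs, from RefSeq on GRCm38.p6. Seed bases 2 to 8 are in capitals.
let-7i-5p: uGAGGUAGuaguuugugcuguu
let-7b-5p: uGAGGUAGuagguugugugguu
let-7c-5p: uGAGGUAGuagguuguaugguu
let-7a-5p: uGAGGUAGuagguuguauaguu
let-7f-5p: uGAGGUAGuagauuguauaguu
let-7e-5p: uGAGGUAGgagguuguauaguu
miR-98-5p: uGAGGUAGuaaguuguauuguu
let-7j: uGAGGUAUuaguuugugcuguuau
miR-196b-5p: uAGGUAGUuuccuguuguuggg
Of the 11 mature miRNAs of the family in the miRNA table, 10 share the seed GAGGUAG, and let-7j differs in its last seed base. In DNA letters the 10 pair with CTACCTC as a 7m8 site and CTACCTCA as an 8mer site. miR-196b is shown because its seed is the let-7 seed moved by a base: its site, ACTACCT, shares the 6 bases CTACCT with that of let-7. Of the 688 peaks, 173 (25.1%) also carried a miR-196-5p entry, and 77.2% of the 224 peaks with a miR-196-5p entry were let-7 site peaks. At such a peak the letters alone do not say which miRNA Ago2 carried.

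One site can be shown in its surroundings, because the first 30 bases of a let-7 peak in the 5′ UTR of Slc3a1, a subunit of a cystine transporter, lie within the RefSeq promoter table (GRCm38.p6, chr17:85028367-85028396, plus strand). Capitals mark the 7m8 site.
Slc3a1 site: cagcaagacacctttCTACCTCtgtccctg
The base after the site is T, so the match is a 7m8 and not an 8mer, as the annotation has it. Those letters occur on the gene's strand in 1.79% of the 32851 promoter windows of that table and on either strand in 3.85%. The Slc3a1 peak had 15.0, 31.8, 69.4, 115, 119 and 70.3 normalised counts (reads divided by a size factor per library) in G12D replicates 1 to 6, against 25.9, 9.47, 38.0, 60.2, 31.7 and 16.9 in WT replicates 1 to 6. The groups overlapped.

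Most of the 688 peaks held a single let-7 match. An 8mer was listed for 379 and a 7m8 alone for 309, and 16 peaks held more than 1 let-7 match. The largest number of 8mers was in an intron of Tnrc6c, whose protein joins Ago2 to the deadenylase machinery, with 6 of them in 86 bases (chr11:117664604-117664689). That peak stood at 1.93, 2.07, 11.6, 34.2, 32.0 and 38.3 normalised counts in G12D replicates 1 to 6, against 3.43, 3.79, 2.24, 18.8, 4.53 and 7.23 in WT replicates 1 to 6. The higher values were those of batch 2 in G12D. For 326 of the 688 peaks let-7 was the only strong entry; after miR-196, the next most frequent partners were miR-674-5p (18 peaks), whose site CTCAGTG shares the 4 bases CTCA with the let-7 8mer, and the miR-15/16 family (15 peaks). Entries for the other arm, let-7d-3p, were found in 5 peaks, 4 of which had no let-7-5p entry.

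The let-7 peaks were annotated as exonic, apart from the UTRs, more often than those of the next 4 seed families by number. Of the 688, 278 (40.4%) were annotated as exonic, 261 (37.9%) as 3′ UTR, 121 (17.6%) as intronic and 28 (4.07%) as 5′ UTR. Peaks with a strong site of another miRNA and none of let-7 were 30.0% exonic and 55.3% 3′ UTR (n = 4250), and peaks with no strong site were 33.5% exonic and 50.2% 3′ UTR (n = 2647). Among the next 4 families by number, the exonic share was 35.4% for miR-15/16 (401 peaks), 27.4% for miR-200 (380), 25.1% for miR-29 (379) and 21.4% for miR-17 (378). The miR-196-5p family, most of whose 224 peaks are let-7 peaks, was higher at 48.7%. Within the let-7 set the exonic share was 40.6% for 8mer peaks and 40.1% for 7m8 peaks. The 8mer share of the let-7-5p peaks was 55.3%, against 35.9% for miR-15/16, 52.9% for miR-200, 44.9% for miR-29 and 48.7% for miR-17. Among families with fewer peaks it was higher for miR-23 (67.6%), miR-27 (66.8%) and miR-25/92 (64.8%). It was lower for miR-19 (45.3%), miR-24 (44.0%), miR-194 (41.0%) and miR-196-5p (7.14%). These are counts in 1 merged peak list and have no replicates.

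**Figure D1:**
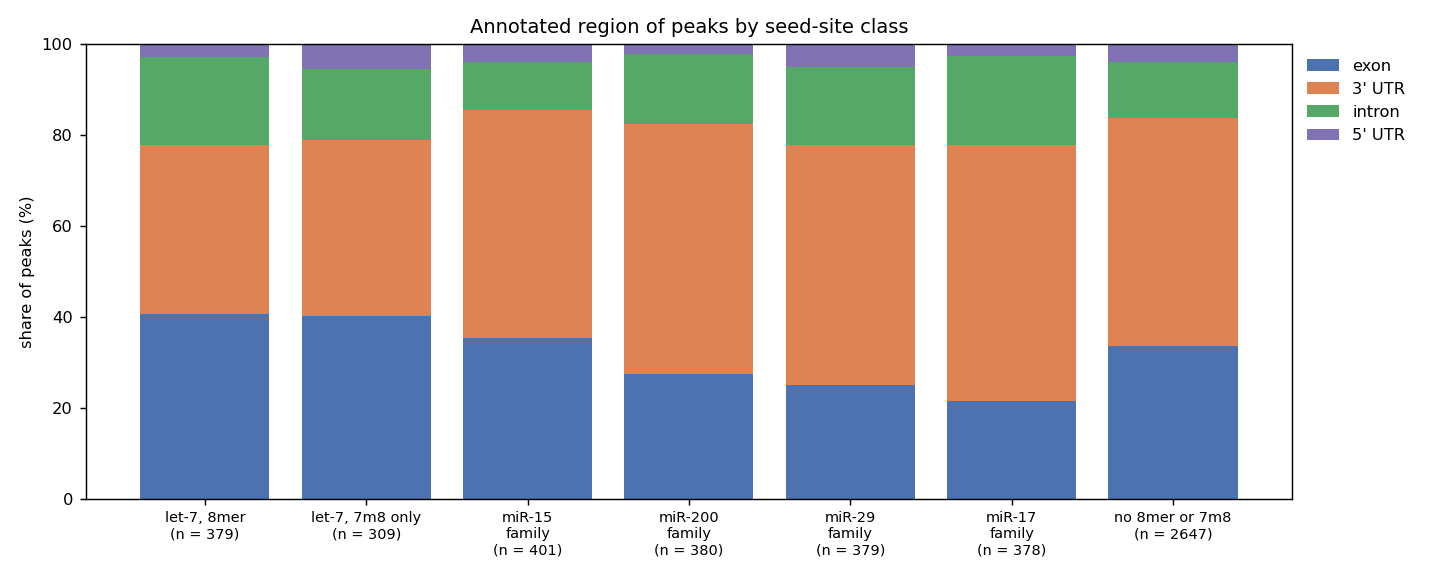
Share of peaks (%) in each annotated region, for let-7 peaks with an 8mer or a 7m8 match alone, for peaks of 4 other seed families and for peaks with no 8mer or 7m8 match. Both let-7 bars reach 40% exonic, above the 21.4% to 35.4% of these 4 families.

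The mean over the 12 tumours ranged from 1.08 to 2572 normalised counts with a median of 22.6, apart from a peak on the mitochondrial ribosomal RNA mt-Rnr1 that is listed at 0 in every library. The median was 19.7 for peaks with another strong site and 16.3 for those with none. By family it was 24.3 for miR-17, 22.5 for miR-200, 18.7 for miR-15/16 and 18.5 for miR-29. The 3 highest let-7 peaks held 15.1% of the summed value of the set and the 12 highest held 27.7%. Of the 652 genes, 619 had a single let-7 peak, 31 had 2, Dicer1 had 3 and Trim6 had 4. RefSeq lists 632 of the genes as protein coding; Neat1, a nuclear long non-coding RNA, was among the others.

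The highest peak lay in an exon of Muc2, the gel-forming mucin of goblet cells (chr7:141691355-141691407, 8mer), with 5917, 5298, 725, 380.4, 1174 and 442 normalised counts in G12D replicates 1 to 6, against 1283, 6539, 6881, 1969.7, 127 and 123 in WT replicates 1 to 6. A peak annotated to the 5′ UTR of the membrane mucin Muc3 (chr5:137150516-137150581, 8mer) had 3647, 5144, 539, 215, 362 and 251 in G12D, against 221, 5711, 3648, 264, 31.7 and 31.3 in WT. Both were high in the same 4 tumours, G12D replicates 1 and 2 and WT replicates 2 and 3, all of batch 1, and the genotypes overlapped.

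A different distribution over tumours was seen at Sema4c and Pthlh. The 3′ UTR peak of Sema4c, a transmembrane semaphorin (chr1:36549439-36549494, 8mer), had 337, 170.1, 428, 1115, 921 and 711 normalised counts in G12D replicates 1 to 6, against 230.0, 152, 142, 1254, 571 and 2092 in WT. The exonic peak of Pthlh, which encodes parathyroid hormone-related peptide (chr6:147257221-147257277, 7m8), had 156, 197, 213, 1924, 769 and 737 in G12D, against 46.5, 28.4, 53.7, 338, 675 and 586 in WT. At Sema4c and Pthlh all 3 batch 2 tumours of each genotype lay above all 3 of its batch 1 tumours. At Pthlh, but not at Sema4c, all 3 G12D tumours of each batch also lay above its 3 WT tumours. The log2 fold change of Pthlh, G12D over WT, was 1.58 (adjusted p = 0.108 in limma), against a median of 1.33 for all peaks. Without WT replicates 5 and 6 it was 1.97, against a median of 0.38. The authors' deposited table calls the Pthlh peak higher in G12D (adjusted p = 0.0101).

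Hmgcs1 and Actb varied less among G12D tumours than Muc2 and Muc3 did. The exonic peak of Hmgcs1, an enzyme of the mevalonate pathway (chr13:119701159-119701214, 8mer), had 532, 475, 634, 1027, 960.2 and 1156 normalised counts in G12D replicates 1 to 6, against 289, 288, 319, 656, 67.9 and 460.3 in WT replicates 1 to 6, with WT replicate 4 inside the G12D range. Actb, the cytoskeletal beta-actin, averaged 2595 ± 482 in G12D and 1271 ± 748 in WT (SD, n = 6 each) at its exonic 8mer peak; reads of Actb can be shared with its processed copies, and its value is uncertain for that reason. Another 5 of the 12 highest were exonic peaks of March7, a ubiquitin ligase, Atp10b, a lipid flippase, Gars, the glycyl-tRNA synthetase, and Cyb5r3, a cytochrome b5 reductase, and a 3′ UTR peak of Lrch4. Their means over the 12 tumours lay between 469 for Cyb5r3 and 666 for March7.

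**Figure D2:**
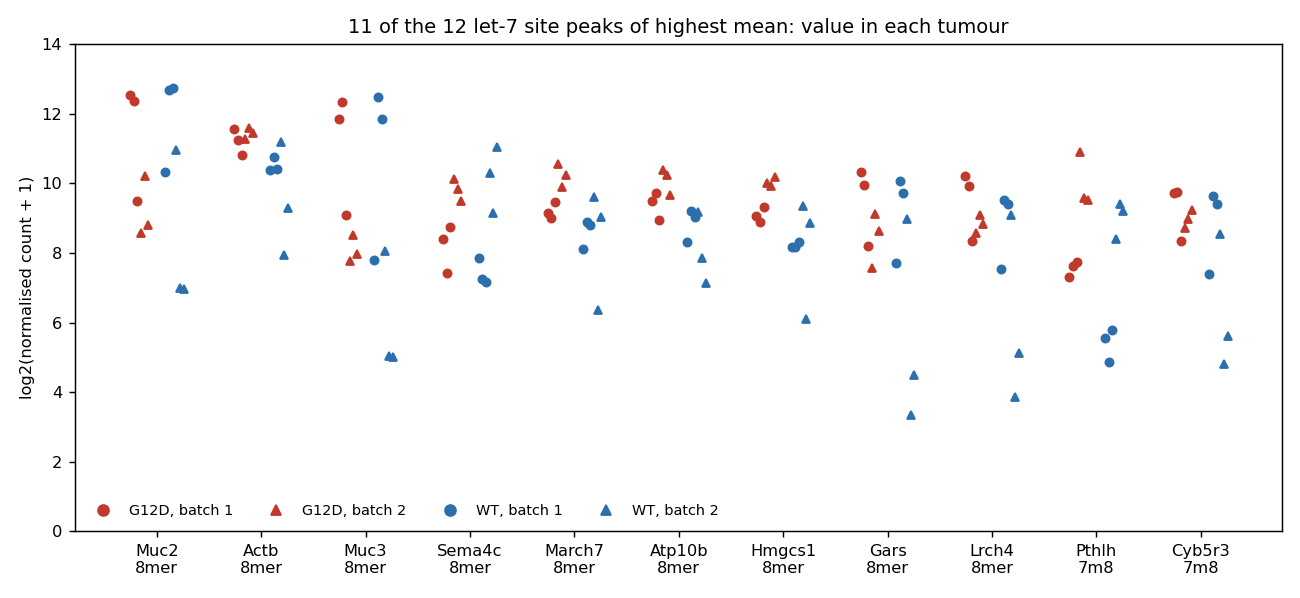
log2(normalised count + 1) of 11 of the 12 let-7 site peaks of highest mean in each tumour, G12D in red and WT in blue, batch 1 as circles and batch 2 as triangles. Muc2 and Muc3 stand highest in 4 batch 1 tumours, Sema4c and Pthlh in batch 2, and the lowest WT triangles of most peaks are replicates 5 and 6.

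The let-7 peaks held 14.8%, 15.9%, 9.89%, 10.3%, 12.3% and 11.2% of the summed peak value in G12D replicates 1 to 6, against 10.4%, 15.0%, 16.0%, 12.9%, 5.08% and 10.5% in WT replicates 1 to 6. The means were 12.4% ± 2.47 in G12D and 11.6% ± 3.95 in WT (SD, n = 6 each), or 13.6% ± 2.49 over WT replicates 1 to 4. Without Muc2, Actb and Muc3 the let-7 share was 10.7% ± 1.27 in G12D and 9.57% ± 2.60 in WT, or 10.7% ± 1.40 over WT replicates 1 to 4. These differences were smaller than the spread within a genotype.

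Peaks with an 8mer had somewhat higher values than those with a 7m8 alone. The median of the peaks' means was 24.6 normalised counts for 8mer peaks and 20.9 for 7m8 peaks, 29.9 and 22.3 in 3′ UTRs, 24.2 and 21.1 in exons, and 20.6 and 20.3 in introns. Within a tumour, the median log2(value + 1) of 8mer peaks minus that of 7m8 peaks was 0.62, 0.68, 0.00, -0.04, -0.15 and -0.14 in G12D replicates 1 to 6, against 0.36, 0.61, 0.62, 0.18, 0.00 and 0.77 in WT replicates 1 to 6. The mean over the 12 tumours was 0.29 ± 0.36 (SD), and 7 tumours were above 0. In WT replicates 5 and 6 the value rests on medians of 0 to 2 reads, so 0.00 and 0.77 are steps of single reads. Without them the mean was 0.27, with 6 of 10 tumours above 0. By batch it was 0.10 ± 0.35 in batch 2 and 0.48 ± 0.26 in batch 1 (SD, n = 6 each). The batch 2 tumours other than WT replicates 5 and 6 lay between -0.15 and 0.18. In 3′ UTRs alone the mean was 0.39 ± 0.35, above 0 in 10 of 12 tumours. It was 0.19 ± 0.34 in exons, above 0 in 6 of 12, and 0.22 ± 0.62 in introns, above 0 in 7 of 12. Peaks of other families gave 0.21 ± 0.20, above 0 in 11 of 12, with the same 0.77 in WT replicate 6. No test was made, since all tumours share the same peaks; over the 245 peaks found in both genotypes' lists the mean difference was 0.01.

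**Figure D3:**
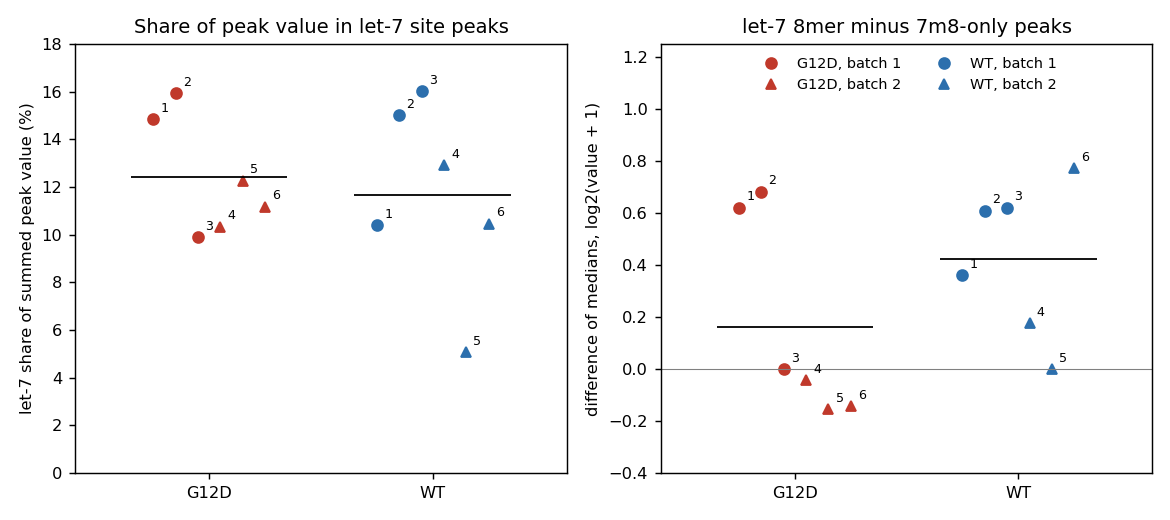
Left, share (%) of the summed peak value that lay in let-7 site peaks; right, median log2(value + 1) of let-7 8mer peaks minus that of 7m8-only peaks. Points are tumours with their replicate numbers, G12D left of WT, and lines are means; the right panel is highest in WT replicate 6 (0.77, a step of 1 read) and at or below 0 in G12D replicates 3 to 6.

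The authors' peak lists carry a score for each peak whose unit is not stated, used here only within a list. In the G12D list the median score was 6.26 for let-7 peaks (685 of them in the list), 5.54 for peaks of another strong site and 4.24 for peaks with none. In the WT list it was 6.46 (248 let-7 peaks), 5.89 and 4.16. Of the next 4 families by number, miR-17 had medians of 6.95 in the G12D list and 7.41 in the WT list, and miR-200 had 6.36 and 7.16. Lower were miR-29, at 5.48 and 5.44, and miR-15/16, at 4.65 and 4.66. Within let-7, the 8mer and 7m8 medians were 6.92 and 5.58 in the G12D list and 6.84 and 5.62 in the WT list. In all, 35.6% of let-7 peaks stood in both lists, 64.0% in the G12D list alone and 0.436% in the WT list alone, against 26.2%, 71.9% and 1.96% of all annotated peaks. The share in both lists was 38.6% for miR-17, 34.2% for miR-200, 25.6% for miR-29 and 21.2% for miR-15/16.

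The comparison of genotypes asked whether let-7 sites were bound differently with K-Ras-G12D. By limma's moderated test on log2(value + 1), adjusting for batch, none of the 681 let-7 peaks with a mean of at least 5 passed an adjusted p of 0.05 (Benjamini-Hochberg over all 7527 peaks tested), as none of all peaks did (0.0% higher and 0.0% lower). At an unadjusted p under 0.05, 220 let-7 peaks (32.3%) were higher and 1 was lower in G12D, against 35.9% and 0.173% of all peaks. Most peaks stood in the G12D list alone, so this direction is not independent of how the peaks were found. The median log2 fold change was 1.30 for let-7 peaks and 1.33 for all peaks, and without WT replicates 5 and 6 it was 0.33 and 0.38. Over peaks in both lists it was 1.24 for let-7 peaks and 1.14 for all, or 0.39 and 0.36 without WT replicates 5 and 6. Rescaling to TMM factors moved the median of all peaks to 0.60 and that of let-7 peaks to 0.52, so each fold change below is to be read against 1.33. The other 7 let-7 peaks had too low a mean to be tested. The 8mer peaks had a median of 1.21 and the 7m8 peaks one of 1.42 (0.25 and 0.43 without WT replicates 5 and 6). Among other families the 8mer median was 1.32 and the 7m8 median 1.39. By region, the median was 1.31 in exons, 1.32 in 3′ UTRs and 1.20 in introns, where that of all intronic peaks was 1.47.

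**Figure D4:**
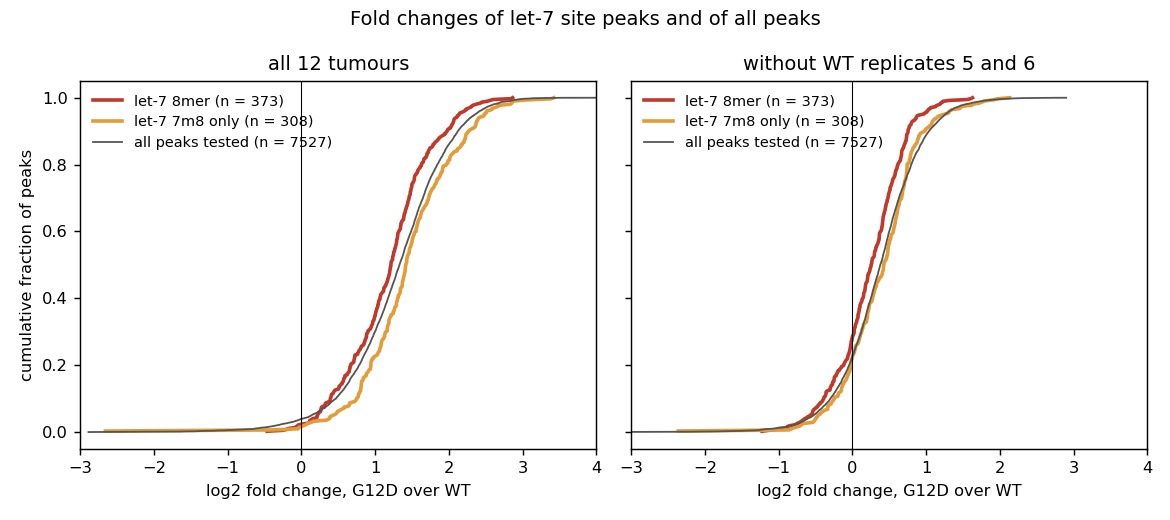
Cumulative fraction of peaks by log2 fold change of G12D over WT, on the log2(value + 1) scale, for let-7 8mer peaks, let-7 7m8-only peaks and all peaks tested, with all tumours (left) and without WT replicates 5 and 6 (right). The let-7 curves run on both sides of the curve of all peaks, with medians of 1.21 and 1.42 against 1.33 on the left.

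The count of calls depended on the libraries included and on the method. Leaving out WT replicate 4, a batch 2 tumour, brought 322 let-7 peaks past the threshold as higher and 1 as lower (45.1% and 0.173% of all peaks); each of the other 11 tumours left out gave 0. Within batch 2 alone 20 were higher (3.11% of all), and within batch 1 alone 0. With a pseudocount of 5, 41 were higher and 1 lower (6.72% and 0.093% of all). On reads recovered from the values, edgeR called 0 higher and 1 lower (0.0531% and 0.0797% of all). DESeq2 called 49 higher and 1 lower (10.2% and 0.361% of all), and without WT replicates 5 and 6 it called 9 higher and 0 lower (2.11% and 0.16% of all). In the authors' deposited table, 48 let-7 peaks were called higher and 1 lower in G12D, 7.06% and 0.147% of the 680 with an adjusted p, against 9.92% and 0.355% of all peaks. Of the 48 called higher there, 16 were among the 379 8mer peaks and 32 among the 309 7m8 peaks. Calls among 8mer and 7m8 peaks of other families were not counted, so whether this split is particular to let-7 was not tested.

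Among peaks with a mean of at least 20, the 4 largest fold changes were at Dgkz, Trpm4, Kbtbd11 and Map3k9. The 3′ UTR peak of Trpm4, a calcium-activated cation channel (chr7:45310289-45310355, 7m8), had 345, 148, 104, 286, 224 and 339 normalised counts in G12D replicates 1 to 6, against 19.1, 34.1, 68.2, 121, 0 and 14.5 in WT. Only G12D replicate 3 fell below the highest WT tumour, and the log2 fold change was 3.38 (SE 0.85, adjusted p = 0.108 in limma), or 1.91 without WT replicates 5 and 6. The authors' deposited table gives Trpm4 2.43 with an adjusted p of 0.00962. The intronic peak of Dgkz, a diacylglycerol kinase, had 4.34, 4.84, 18.5, 118, 103 and 159.7 in G12D, against 6.85, 0, 1.12, 46.9, 0 and 0 in WT (log2 fold change 3.42, adjusted p = 0.108 in limma), so its high values were all of batch 2. Kbtbd11 (3.06) was likewise highest in batch 2, at 68.1 to 156 in G12D and 19.3 in WT replicate 4. The authors' deposited table calls both, with 2.22 (adjusted p = 0.0471) for Dgkz and 2.86 (adjusted p = 0.00776) for Kbtbd11. Map3k9, a MAP kinase kinase kinase (2.88), had 111 to 240.3 in G12D against 0 to 152 in WT. Without WT replicates 5 and 6 the log2 fold change was 1.62 for Dgkz and 0.88 for Map3k9.

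The 4 lowest fold changes among peaks with a mean of at least 20 were at intronic peaks of Agfg1 (-0.47), of Frk, a Src-related kinase (-0.19), and of Ehf, an epithelial transcription factor (-0.04), and at an exonic peak of the phosphatase Ptpn3 (-0.07), with adjusted p-values of 0.507 to 0.954 in limma. At the Agfg1 peak the values were 16.2 to 42.9 in G12D and 17.1 to 53.0 in WT. The single let-7 peak called lower in the authors' deposited table, named after its values were seen, was an exonic 7m8 peak of Slc44a5, a choline transporter-like protein, with a mean below 20 and the lowest fold change of the 681 (-2.66, adjusted p = 0.108 in limma). It had 0.482, 0, 0, 5.98, 0 and 0 normalised counts in G12D, against 1.47, 3.79, 1.12, 38.5, 9.06 and 65.1 in WT.

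At 6 let-7 peaks every G12D tumour lay above every WT tumour (0.881% of those tested, against 1.70% of all peaks), and the count was again 6 when WT replicates 5 and 6 were left out (1.94% of all peaks). None lay below WT in every tumour (0.0% of all peaks, or 0.0797% without those replicates). Of the 6, 4 were 3′ UTR peaks of Chdh, Lamtor4, Tbc1d13 and Sema4b, named after their values were seen. These 4 had G12D means of 15.1 to 25.04 and WT means of 3.43 to 7.52 normalised counts, and log2 fold changes of 1.81 to 2.40 with adjusted p-values of 0.108 to 0.109 in limma.

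Of 37 genes in a list of known let-7 targets, 27 had an Ago2 peak and 16 had one with a let-7 match, 20 peaks in all, of which 15 lay in 3′ UTRs and 14 had an 8mer. None of the 20 passed the limma test (8 were higher and 0 lower at an unadjusted p under 0.05, a cut that 35.9% of all peaks passed as higher), and their median log2 fold change was 1.51, against 1.33 for all peaks. Myc had peaks but none with an 8mer or 7m8 entry for let-7, and Lin28a, Lin28b, Igf2bp1, Igf2bp3 and Trim71, genes known from embryonic tissue, had no peak. Hmga2, the chromatin protein that is the classical let-7 target, had 1 peak, in its 3′ UTR (chr10:120362982-120363045, 7m8). Its values were 168, 139.7, 97.2, 322, 95.9 and 309 normalised counts in G12D replicates 1 to 6, against 47.5, 79.6, 54.8, 135, 18.1 and 21.7 in WT. All 6 G12D tumours lay above every WT tumour but replicate 4, with a log2 fold change of 1.80 (SE 0.64, adjusted p = 0.108 in limma) and 0.98 without WT replicates 5 and 6. The authors' deposited table calls Hmga2 higher (1.58, adjusted p = 0.0408), the only one of the 20 it calls. Hmga1, whose reads can be shared with its processed copies, averaged 27.7 ± 16.2 in G12D and 13.0 ± 11.1 in WT.

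Receptors and adaptors of insulin and IGF signalling followed. In their 3′ UTRs, Igf1r had 15.7 ± 7.52 normalised counts in G12D and 10.5 ± 8.92 in WT, Insr 19.2 ± 8.08 in G12D and 8.69 ± 7.67 in WT, and the adaptor Irs2 52.1 ± 8.26 in G12D and 24.6 ± 21.7 in WT (SD, n = 6 each). For Irs2 the mean over WT replicates 1 to 4 was 36.2 ± 15.5. Nras, the Ras gene of the list with a let-7 peak, averaged 32.9 ± 15.5 in G12D and 16.9 ± 13.9 in WT, with a log2 fold change of 1.53 (adjusted p = 0.137 in limma). Igf2bp2, Nr6a1 and Tgfbr1 had G12D means of 13.2 to 15.5 and WT means of 5.48 to 10.4. The transcription factor Plagl2 was the most abundant of the list, with 785, 734, 146, 76.9, 189.8 and 69.5 in G12D against 150.2, 549, 615, 141, 18.1 and 0 in WT, so that its 4 highest tumours were those of Muc2. The cyclin Ccnj was highest in batch 2, WT replicate 5 apart, with 18.3, 12.4, 16.2, 150.4, 95.4 and 68.8 in G12D against 12.2, 17.05, 14.5, 87.4, 4.53 and 41.0 in WT. The highest let-7 peaks of Bach1, Eif4g2, Col3a1 and Ccnd1 had G12D means of 56.9, 75.4, 23.6 and 27.0 and WT means of 41.8, 38.6, 13.5 and 10.02.

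Of 29 genes for miRNA maturation and silencing 20 had a peak and 7 had a let-7 match, namely Dicer1, Ago2, Dgcr8, Khsrp, Tnrc6c, Cnot7 and Cnot6l, in 9 peaks that all held an 8mer. None passed the limma test, and 2 of the 9 were higher at an unadjusted p under 0.05, where 35.9% of all peaks were. Dicer1, the enzyme that cuts miRNA precursors, had 3 exonic 8mer peaks. The main one (chr12:104702669-104702727) had 318, 223, 106, 248, 236 and 211 normalised counts in G12D replicates 1 to 6, against 63.1, 184, 211, 178, 9.06 and 43.4 in WT. Its neighbour in the same gene (chr12:104702794-104702846) had 58.4, 54.6, 9.26, 5.13, 9.80 and 1.42 in G12D, against 8.32, 51.1, 45.8, 10.9, 0 and 0 in WT. The neighbour was high in the 4 tumours in which Muc2 was high, and the main peak was not so divided. Ago2, the protein pulled down, had a 3′ UTR 8mer peak of 43.1 ± 27.6 in G12D and 29.9 ± 27.6 in WT (SD, n = 6 each).

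In the remaining lists the counts were small, and those at an unadjusted p under 0.05 are to be read against the 35.9% of all peaks that were higher there. Insulin and IGF signalling had let-7 peaks on 5 of 25 genes (6 peaks, 2 higher at an unadjusted p under 0.05), Ras and MAPK signalling on 3 of 30 (Nras, Erbb2 and Ereg, 2 higher), Wnt targets and intestinal stem cell genes on 6 of 22 (7 peaks, 1 higher) and the cell cycle on 3 of 24 (Ccnd1, Ccnj and Rb1, 0 higher). None was lower, and none passed the adjusted threshold of limma. Erbb2, a receptor tyrosine kinase, had 142, 155, 62.5, 265, 285 and 243 normalised counts at its exonic 7m8 peak in G12D, against 39.6, 75.8, 86.1, 169, 40.8 and 45.8 in WT (log2 fold change 1.36, adjusted p = 0.124 in limma). Ephb2, a crypt receptor of the Wnt list, had 27.8 to 157 in G12D and 4.53 to 50.9 in WT and is the one peak of these lists that the authors' deposited table calls (1.59, adjusted p = 0.0482). Ereg, a ligand of the EGF receptor, had 61.3 and 71.2 in G12D replicates 1 and 2, 0 to 9.26 in the other G12D tumours and 0 to 18.9 in WT.

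Let-7 peaks were called between batches in both directions, in shares near those of all peaks. In the same limma model, a comparison added after the data were seen, 16 let-7 peaks were higher and 46 lower in batch 2 than in batch 1, or 2.35% and 6.75%, against 3.02% and 5.99% of all peaks. Without WT replicates 5 and 6, 247 were higher and 36 lower (36.3% and 5.29%, against 34.8% and 5.97% of all), and 16 and 35 of the calls were common to both fits. The median log2 difference, batch 2 over batch 1, was -0.37 for let-7 peaks and -0.29 for all peaks. Without those replicates it was 0.67 and 0.70. The naming rule picks in part by spread over these same tumours. Of the 53 peaks it picked, 10 passed in both fits, a count that is not a share of let-7 peaks. Higher in batch 2 were Sema4c (2.18 on the log2 scale, adjusted p = 0.0131 in limma) and Pthlh (3.02, adjusted p = 0.00367), and lower were the Muc2 and Muc3 peaks (-2.95, adjusted p = 0.0121, and -3.84, adjusted p = 0.00509), Plagl2, an exonic 8mer peak of Lgals3bp, a secreted galectin-binding glycoprotein, Pds5a, a regulator of cohesin, the intronic peaks of Ehf and Frk and the second Dicer1 peak. With any one tumour left out, 7 to 10 of these 10 passed, and the total of let-7 calls ranged from 25 to 141. It was 25 without WT replicate 2, 27 without G12D replicate 4, 28 without WT 3, 29 and 32 without G12D 2 and 1, 35 without WT 6, 39 without G12D 6, 100 without G12D 3, 108 without WT 5 and 141 without WT 4. The shares of all peaks called in these fits were not counted, so whether these changes are particular to let-7 peaks was not tested. The genotype effect did not pass a test of its difference between batches at any let-7 peak (0 called in limma, against 0.0399% of all peaks higher).

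Peaks of one gene differed in this. Muc2 had a second let-7 peak, a 7m8 match in another exon (chr7:141751467-141751516), with 82.5, 76.0, 181, 321, 429 and 319 normalised counts in G12D replicates 1 to 6, against 99.3, 127, 132, 408, 22.6 and 33.7 in WT. Its batch difference was 0.48 (adjusted p = 0.705 in limma), while that of the first Muc2 peak was -2.95. Without WT replicates 5 and 6 the second peak was higher in batch 2 (1.76, adjusted p = 0.00157) and the first lower (-1.84, adjusted p = 0.0427). Of the Lgals3bp peaks, the 8mer peak had 596 and 985 in G12D replicates 1 and 2 and 29.1 to 86.1 in the other G12D tumours, and the 7m8 peak nearby had 60.2 to 411 in G12D, with replicate 5 the highest. The 4 peaks of Trim6, an E3 ubiquitin ligase, lay in its 3′ UTR within chr7:104233452-104233690 and each held an 8mer, 3 of them with a miR-16-1-3p entry too. Their means over the 12 tumours were 7.68 to 47.3 normalised counts.

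Over the 681 let-7 peaks, log2 values of tumour pairs of 1 batch and 1 genotype had Pearson correlations of 0.58 to 0.95 (12 pairs), and pairs of different batch and the same genotype 0.34 to 0.81 (18 pairs). G12D 2 and WT 3 reached 0.93, while G12D 2 and G12D 3 were at 0.63. These describe libraries over the same peaks, which are not independent. Among the 79 let-7 peaks with a mean of at least 100, the median coefficient of variation over the 12 tumours was 0.713, against 0.738 for all 556 such peaks. The steadiest were 3′ UTR peaks of Utrn, which encodes utrophin (0.362), of the annotated RP23-230O9.4 (0.405) and of the ubiquitin ligase Fbxo32 (0.420). An exonic peak of Ndufb7, a complex I subunit, was among them too (0.405). Utrn had 344, 305, 176, 309, 253 and 178 normalised counts in G12D, against 143, 366, 296, 257, 95.1 and 164 in WT. The most variable were Ctr9, a subunit of a transcription elongation complex (1.32), Muc3 (1.31), Pds5a (1.27) and Fads3, a fatty acid desaturase (1.26). Ctr9 had 132, 78.1, 231, 1630.1, 1039 and 1301 in G12D, against 70.5, 39.8, 41.4, 449, 4.53 and 123 in WT.

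The miRNAs themselves were measured in separate libraries of 289462 to 471587 reads. Together the let-7-5p arms and miR-98-5p made up 4.32% ± 0.385 of the normalised miRNA counts in G12D and 4.31% ± 0.422 in WT (SD, n = 6 each). let-7i-5p was the most abundant, with 5502 ± 554 in G12D and 5630 ± 504 in WT, followed by let-7b-5p, let-7c-5p and let-7a-5p. For let-7i-5p the 6 values were 5634, 5944, 6317, 5062, 4932 and 5126 in G12D, against 5638, 6596, 5360.2, 5466, 5149 and 5573 in WT. miR-196b-5p, whose seed overlaps, stood higher than any of them, at 12474 ± 2111 in G12D and 11924 ± 1742 in WT. None of the 9 family members tested passed the limma threshold (1.76% of the 284 miRNAs tested were higher and 2.11% lower), and 0 had an unadjusted p under 0.05. DESeq2 called 0 of them too (3.55% of miRNAs higher and 6.03% lower). Their log2 fold changes ran from -0.05 for let-7b-5p to 0.62 for let-7a-5p (SE 0.38, adjusted p = 0.438), and without WT replicates 5 and 6 from -0.23 to 0.25.

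One WT library stood apart, and without it the log2 fold change of let-7a-5p was 0.19. In WT replicate 5, let-7a-5p stood at 231 normalised counts, against 1232 to 1852 in the other WT tumours. let-7f-5p was at 14.9% of the mean of the other WT tumours, let-7d-5p at 24.4%, let-7g-5p at 41.3% and let-7e-5p at 3.79%, while let-7i-5p was at 89.9%, let-7c-5p at 87.4%, miR-98-5p at 104% and let-7b-5p at 105%. The same tumour has the shallowest mRNA library and the lowest let-7 share of peak value, 5.08%. Its share at peaks with another strong site was the lowest too, 24.9%, against 49.8% to 57.7% in the other tumours. Its let-7-5p arms and miR-98-5p together made up 4.07% of miRNA counts, within the 3.74% to 4.90% of all tumours. Whether the low let-7 miRNAs and the low let-7 share are linked was not tested. let-7j (mean 8.57 in G12D) and let-7k (0.489) were below the minimum mean of 10.

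**Figure D5:**
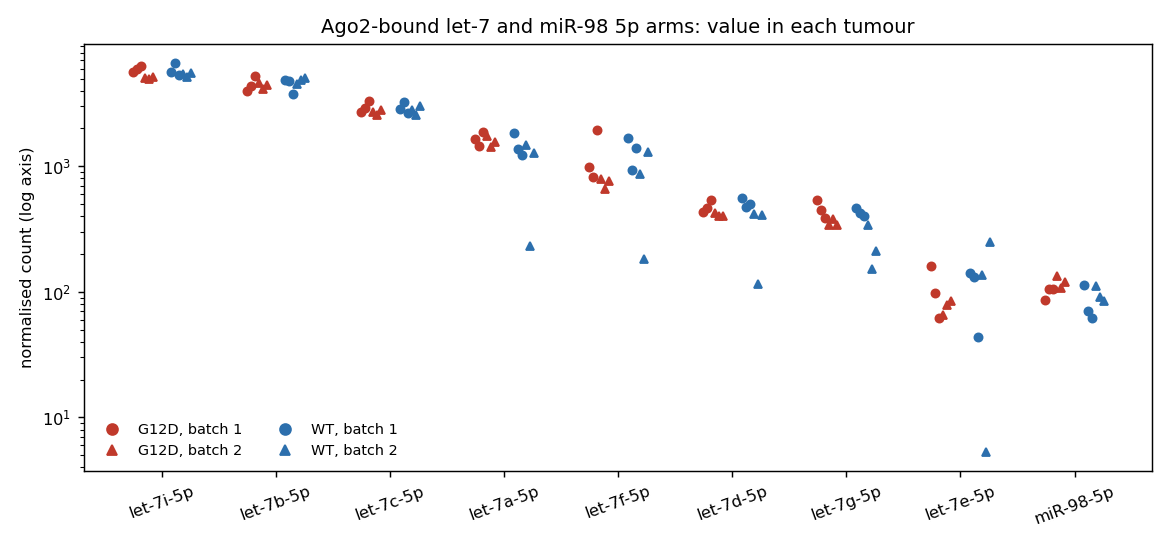
Normalised counts (log axis) of the let-7 and miR-98 5p arms bound to Ago2 in each tumour, ordered by mean, G12D in red left of WT in blue, batch 1 as circles and batch 2 as triangles. The genotypes overlap at every miRNA, and WT replicate 5 is the low triangle at let-7a, let-7f, let-7d, let-7g and let-7e.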

How the data were processed

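Members, lists and naming rule were chosen with earlier results of these data known. STAR 2.5.2b, DESeq2, mm10 and GRCm38 stand in the submitters' processing notes, without roles, and the peak caller is not stated. The deposited signal tables hold, per the values, reads per feature, scaled by the authors with one size factor for each library (normalised counts), with replicates kept apart. The 12 peak columns name genotype and number only and were taken as the mRNA libraries. All values (100%) were whole multiples of 1 read within a tolerance of 0.001 reads, worth 0.482 to 4.53 normalised counts in peaks. The peak score in the authors' lists has no stated unit per the file headers. The log2 fold changes and adjusted p-values of the authors' deposited table are named where used. Seed sites, regions and genes are the authors' deposited annotation. List overlap needed 1 base on the same strand.

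limma 3.58.1 (R 4.3.3), trend method, was fitted to log2(value + 1) with genotype and batch for all peaks with a mean of at least 5 and miRNAs with a mean of at least 10, Benjamini-Hochberg at 0.05. edgeR 4.0.16 (quasi-likelihood) and DESeq2 1.42.0 on recovered reads were alternatives; edgeR called 0 let-7 peaks higher and 1 lower, DESeq2 49 and 1. Scripts were tested on simulated data. Intervals were not computed; each read may not be its own molecule.

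Named were the 12 peaks of highest mean, the 4 highest and 4 lowest fold changes at a mean of at least 20, known let-7 targets (highest peak per gene), the 5 genes with most peaks, and the 4 largest and 4 smallest coefficients of variation at a mean of at least 100. Slc3a1, Tnrc6c, Ago2, Erbb2, Ephb2, Ereg, Slc44a5 and the peaks without overlap between genotypes were named after their values were seen. Some peaks that this rule picks are not reported here.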

Additional observations from a re-analysis of the deposited data

Results flagged for a closer look

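Of 136 groups of 6 tumours (values of peaks and miRNAs picked by the naming rule and of summary shares, by genotype), 16 held a tumour whose gap to its neighbour was large against the group's range by Dixon's test at the 0.05 level. Chance flags about 1 group in 20 only for independent, normally distributed values. These are unlogged counts from 2 batches and unlike depths, so that rate need not hold and the flags are a description. Among peaks, WT replicate 4 stood above the other WT tumours at Ctr9 (449 normalised counts, others 4.53 to 123), Fads3 (251, others 9.06 to 44.7), the 7m8 peaks of Lgals3bp (385, others 18.1 to 149.8) and Muc2 (408, others 22.6 to 132), Dgkz (46.9, others 0 to 6.85), Kbtbd11 (19.3, others 0 to 4.47) and Ccnd1 (32.6, others 0 to 11.2). WT replicate 4 is the deepest WT library and a batch 2 tumour. G12D replicate 4 was high at Pthlh (1924, others 156 to 769) and G12D replicate 5 at Ccnd1 (72.2, others 2.31 to 27.0). WT replicate 5 was low at Ndufb7 (4.53, others 223 to 351).

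Among miRNAs, WT replicate 5 was low for let-7d-5p (116, others 412 to 563) and is the only WT library with let-7k (1.52, others 0). G12D replicate 1 was high for let-7e-5p (160.4, others 62.3 to 97.8) and let-7j (16.0, others 4.98 to 8.71), G12D replicate 3 for let-7f-5p (1954, others 655 to 989) and WT replicate 2 for let-7i-5p (6596, others 5149 to 5638). No let-7 peak passed the test for a genotype effect that differs between batches.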

How the results depend on the processing

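No let-7 peak and no let-7 miRNA passed in limma under the replicate block, TMM scaling, no filter on low values, batch 1 alone or without WT replicates 5 and 6. The labels do not say that same-numbered tumours are related, so numbers were not taken as pairs. Residual correlations of same-numbered tumours ran from -0.52 to 0.31, which cannot decide whether they are related. The pairing as a replicate block gave 0 calls. Let-7 peak calls were 42 with a pseudocount of 5, 1 with edgeR, 50 with DESeq2, 9 with DESeq2 without WT replicates 5 and 6, 20 in batch 2 alone, and 0 to 323 with 1 tumour left out (323 without WT replicate 4); the cause was not tested. The 62 batch calls became 283 without WT replicates 5 and 6, 117 with a pseudocount of 5, and 25 to 141 with 1 tumour left out. Batch calls over all peaks were not counted with a pseudocount of 5 or with 1 tumour left out. None of 45 named fold changes was called in limma on all 12 tumours. Among 990 values of these under alternatives, 44 were called with the same sign. They were 24 without WT replicate 4, 6 with DESeq2, 5 with a pseudocount of 5 and 5 in batch 2 alone. The other 4 were with DESeq2 without WT replicates 5 and 6, Pthlh, Hmgcs1 and Trpm4 among them. The shares of all peaks called in these fits are given above. These log2 values of named fold changes changed sign. Without WT replicates 5 and 6 Muc2 was -0.88, Bach1 -0.066, let-7d-5p -0.075, let-7e-5p -0.23 and let-7f-5p -0.18, and with DESeq2 on those tumours Muc2 was -0.76, Muc3 -0.00306, Bach1 -0.063, let-7b-5p 0.00061, let-7d-5p -0.076, let-7e-5p -0.29 and let-7f-5p -0.13. In batch 1 alone Muc2 was -0.45, Bach1 -0.024, Ehf 0.35, Hmga1 -0.12, Igf2bp2 -0.13, let-7b-5p 0.020, let-7c-5p 0.024, let-7d-5p -0.10, let-7f-5p -0.15 and let-7i-5p 0.029, and in batch 2 alone Sema4c was -0.35. TMM scaling gave Muc2 -0.81 and Sema4c -0.82. edgeR and DESeq2 gave Muc2 -0.23 each, let-7e-5p -0.38 each and let-7f-5p -0.086 and -0.085. With 1 tumour left out Ehf ranged over -0.40 to 0.20, Frk -0.51 to 0.40, Muc2 -0.15 to 0.73, Ptpn3 -0.40 to 0.23, let-7c-5p -0.061 to 0.012, let-7d-5p -0.061 to 0.35, let-7e-5p -0.52 to 0.66 and let-7f-5p -0.32 to 0.31. Depth limits WT replicate 5 most, where 1 read is worth 4.53 normalised counts.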
